A study of Mus musculus with 24 samples.

Results

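The 5 globin genes described here are HBB-BH1, HBB-Y and HBA-X, the embryonic globins, and HBB-B1 and HBA-A1, the adult globins. They are the target IDs of the deposited value table that bear these names, 5 of 31483 target IDs (a target ID is a transcript that at least 1 probe reads), and no further row carried a synonym of any of them. Their levels come from 24 Illumina bead arrays, with 3 Cirh1a +/- and 3 wild-type samples at each of 4 stages. Whole embryos were taken on day 8.5 of development (E8.5) and at E9.5, and liver buds at E11.5 and E12.5, all from littermates of the C57BL/6 JAX strain, with genotypes read from yolk sac. The Cirh1a +/- samples carry a β-Geo gene trap in 1 copy of Cirh1a, which encodes a nucleolar protein of ribosome production (cirhin). Wild-type littermates were the reference at each stage. Pooling of embryos and separate litters are not stated in the labels, so p-values measure only the spread between these samples.

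Haemoglobin joins alpha-like and beta-like globin chains around haem, and each kind of chain is encoded by a cluster of genes that are used in turn during development. The first red cells of the mouse, the primitive erythroid cells of the yolk sac, use the beta-like genes Hbb-bh1 and Hbb-y and the alpha-like gene Hba-x, and they also make adult alpha chains. As these cells mature in the circulation they move from Hbb-bh1 to Hbb-y and from Hba-x to adult alpha. Definitive red cells arise later in the fetal liver and use adult alpha and adult beta genes.

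In the RefSeq annotation of the mouse genome (GRCm38.p6) the beta-like genes lie on chromosome 7, with Hbb-y at chr7:103851754-103853207 and Hbb-bh1 at chr7:103841638-103843162. The adult beta genes on that chromosome sequence are Hbb-bs at chr7:103826523-103827928 and Hbb-bt at chr7:103812524-103813923. The alpha-like genes lie on chromosome 11, with Hba-x at chr11:32276600-32278116, Hba-a1 at chr11:32283672-32284486 and Hba-a2 at chr11:32296492-32297310. HBB-B1 was read by 11 probes, HBB-BH1 and HBB-Y by 2 each, and HBA-X and HBA-A1 by 1 each. The adult genes are near-identical copies of one another, so HBB-B1 and HBA-A1 are read here as adult beta and adult alpha signal, and which copy gave it is uncertain. A separate adult beta target, HBB-B2, was read by 1 probe and was lower. Its mean log2 level was 1.99 at E8.5 and 9.58 at E12.5, against 10.59 and 14.96 for HBB-B1.

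The 150 bases before the start site of the globin genes are shown because embryonic and adult globins were low together on 1 array, and the words marked are the classic boxes of globin promoters. Capitals mark matches on either strand to the CACCC box, to the CCAAT box, to the TATA word TATAA or to the related word ATAAA, and the last of these overlaps the TATA word where both are present. Sequences are from RefSeq, GRCm38.p6, 5′ to 3′ along the gene, and the adult beta genes Hbb-bs and Hbb-bt stand for the adult beta target.
Hbb-y, chr7:103853208-103853357, minus strand: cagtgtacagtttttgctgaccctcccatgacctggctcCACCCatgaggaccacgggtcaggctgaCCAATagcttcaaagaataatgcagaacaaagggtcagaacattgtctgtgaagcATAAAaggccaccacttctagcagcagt
Hba-x, chr11:32276450-32276599, plus strand: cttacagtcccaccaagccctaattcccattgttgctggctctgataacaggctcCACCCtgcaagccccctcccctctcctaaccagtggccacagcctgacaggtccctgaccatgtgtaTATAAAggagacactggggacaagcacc
Hba-a1, chr11:32283522-32283671, plus strand: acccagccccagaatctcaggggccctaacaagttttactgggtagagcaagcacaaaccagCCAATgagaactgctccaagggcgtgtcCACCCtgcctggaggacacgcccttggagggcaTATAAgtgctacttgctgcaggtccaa
Hbb-bs, chr7:103827929-103828078, minus strand: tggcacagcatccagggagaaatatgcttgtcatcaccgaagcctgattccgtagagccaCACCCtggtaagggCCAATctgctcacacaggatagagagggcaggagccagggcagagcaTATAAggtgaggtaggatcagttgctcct
Hbb-bt, chr7:103813924-103814073, minus strand: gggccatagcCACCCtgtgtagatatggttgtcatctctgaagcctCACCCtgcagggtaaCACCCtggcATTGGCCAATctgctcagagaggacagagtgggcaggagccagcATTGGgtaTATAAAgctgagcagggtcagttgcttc
CACCC was present in each of the 5 windows, which are those of 3 globins and of the adult beta pair Hbb-bs and Hbb-bt and do not include Hbb-bh1, and in 37.4% of 32851 promoter windows of the same length. CCAAT was found in the windows of Hbb-y, Hba-a1, Hbb-bs and Hbb-bt and in 24.5% of all windows, and Hba-x had none of these letters in its window. TATAA stood in every window but that of Hbb-y, against 14.2% of all windows, and ATAAA stood in those of Hbb-y, Hba-x and Hbb-bt, against 24.1%. These matches are letters in a window and were not tested as binding sites.

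The deposited values are log2 levels normalized by the authors, and their scale differs between stages. Arrays of E8.5 and of E12.5 have 1 common distribution (largest percentile gap 0.00116), whereas the E9.5 and E11.5 arrays lie up to 4.45 and 4.87 away from it. The median target ID was at 2.70 on the E8.5 and E12.5 arrays, at 6.63 or 6.64 at E9.5 and at 6.90 or 6.91 at E11.5. Stages other than E12.5 and E8.5 are therefore set side by side without a test. Cirh1a itself was lower in every Cirh1a +/- sample than in every wild-type sample at the 3 stages with a value analysed here. Its levels were 9.85 to 9.90 in Cirh1a +/- and 10.64 to 10.97 in wild type at E8.5, 10.73 to 10.98 in Cirh1a +/- and 11.74 to 11.78 in wild type at E9.5, and 9.26 to 9.63 in Cirh1a +/- and 10.32 to 10.46 in wild type at E12.5. At E8.5 all 3 Cirh1a +/- samples had the female transcript Xist and all 3 wild-type samples had Y-linked transcripts, so sex and genotype cannot be told apart at that stage. At E12.5 Xist averaged 3.99 in Cirh1a +/- and 2.00 in wild type, and Y-linked Eif2s3y 6.52 and 8.76. The genotypes may thus differ in sex there too, and its part in the globin values was not tested. Hepatocyte markers were high in the samples labelled liver, with mean levels of their 10 genes of 12.22 to 12.66 at E12.5 against 7.72 to 9.78 at E8.5.

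HBB-BH1, the embryonic beta-like chain used first in primitive red cells, was lower in E12.5 liver than in E8.5 whole embryo, the stages that have 1 scale, and read about 14 in E11.5 liver. At E8.5 it read 10.94, 14.68 and 14.79 in the Cirh1a +/- samples (replicates 1, 2 and 3) and 14.40, 14.50 and 13.88 in wild type. At E9.5 the Cirh1a +/- values were 14.48, 14.58 and 14.56 and the wild-type values 14.39, 14.29 and 14.62. The lowest value belongs to E8.5 Cirh1a +/- replicate 1, and the groups overlapped at both stages. In E11.5 liver it read 14.32, 14.34 and 13.94 in Cirh1a +/- and 13.96, 14.27 and 13.99 in wild type. In E12.5 liver the Cirh1a +/- samples had 11.76, 12.29 and 12.04 and the wild-type samples 11.71, 11.71 and 11.76. The groups overlapped at E11.5 and stood just apart at E12.5, where the lowest Cirh1a +/- value and the highest wild-type value both round to 11.76.

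HBB-Y, the embryonic beta-like chain (epsilon-y) that primitive cells carry longer, stayed near the top of the scale in liver. Its E8.5 values were 7.40, 14.20 and 14.19 in Cirh1a +/- and 13.22, 14.48 and 12.96 in wild type. At E9.5 they were 15.46, 15.61 and 15.59 in Cirh1a +/- and 15.41, 15.51 and 15.50 in wild type. The 2 genotypes overlapped at both stages, and Cirh1a +/- replicate 1 at E8.5 lay far below all other samples of its stage. In E11.5 liver HBB-Y read 15.20, 15.08 and 15.13 in Cirh1a +/- and 15.26, 15.18 and 15.05 in wild type. In E12.5 liver it read 14.83, 15.15 and 15.21 in Cirh1a +/- and 14.96, 14.99 and 14.82 in wild type. Liver values of the 2 genotypes overlapped at both days.

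HBA-X, the embryonic alpha-like chain (zeta), overlapped between E12.5 liver and E8.5 whole embryo, and its values near 15 at E9.5 and E11.5 are on scales of their own. At E8.5 it stood at 8.01, 12.98 and 13.23 in Cirh1a +/- and at 12.81, 12.83 and 12.02 in wild type. At E9.5 it stood at 15.08, 15.24 and 15.35 in Cirh1a +/- and at 15.17, 15.24 and 15.34 in wild type. The genotypes overlapped at E9.5, and at E8.5 they overlapped with 1 Cirh1a +/- sample below and 2 above the wild-type samples. E11.5 liver gave 15.10, 15.01 and 14.95 in Cirh1a +/- and 15.06, 15.11 and 14.88 in wild type. E12.5 liver gave 11.47, 12.89 and 12.44 in Cirh1a +/- and 11.79, 11.81 and 11.18 in wild type. At E12.5 Cirh1a +/- replicates 2 and 3 were above every wild-type sample, and replicate 1 lay among them.

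HBB-B1, the adult beta chain of definitive red cells, differed most of the 5 globins between E8.5 whole embryo and E12.5 liver. In whole embryos at E8.5 it read 9.68, 12.23 and 10.84 in Cirh1a +/- and 10.47, 10.48 and 9.83 in wild type. At E9.5 it read 11.07, 11.44 and 11.06 in Cirh1a +/- and 10.89, 11.48 and 11.28 in wild type. Cirh1a +/- replicate 2 at E8.5 was the highest whole-embryo value of this gene, and the genotypes overlapped at both stages. In E11.5 liver it reached 14.86, 14.83 and 14.59 in Cirh1a +/- and 14.84, 14.84 and 14.79 in wild type. In E12.5 liver it reached 15.05, 14.94 and 14.91 in Cirh1a +/- and 14.97, 14.91 and 14.99 in wild type. Both genotypes overlapped in liver at both days.

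HBA-A1, the adult alpha chain made by both primitive and definitive red cells, was already high in whole embryos. It read 9.73, 14.22 and 14.05 in Cirh1a +/- and 13.52, 14.07 and 12.95 in wild type at E8.5. At E9.5 the values were 15.19, 15.32 and 15.40 in Cirh1a +/- and 15.13, 15.41 and 15.37 in wild type. Apart from the low E8.5 Cirh1a +/- replicate 1, its samples overlapped between genotypes. In E11.5 liver the levels were 15.58, 15.46 and 15.46 in Cirh1a +/- and 15.58, 15.54 and 15.58 in wild type, the highest value on each of the 6 arrays. In E12.5 liver they were 15.35, 15.45 and 15.36 in Cirh1a +/- and 15.36, 15.36 and 15.45 in wild type, where the highest value of any target ID was 15.50. A further difference between liver samples could be hidden at the top of the scale for this gene.

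**Figure D1:**
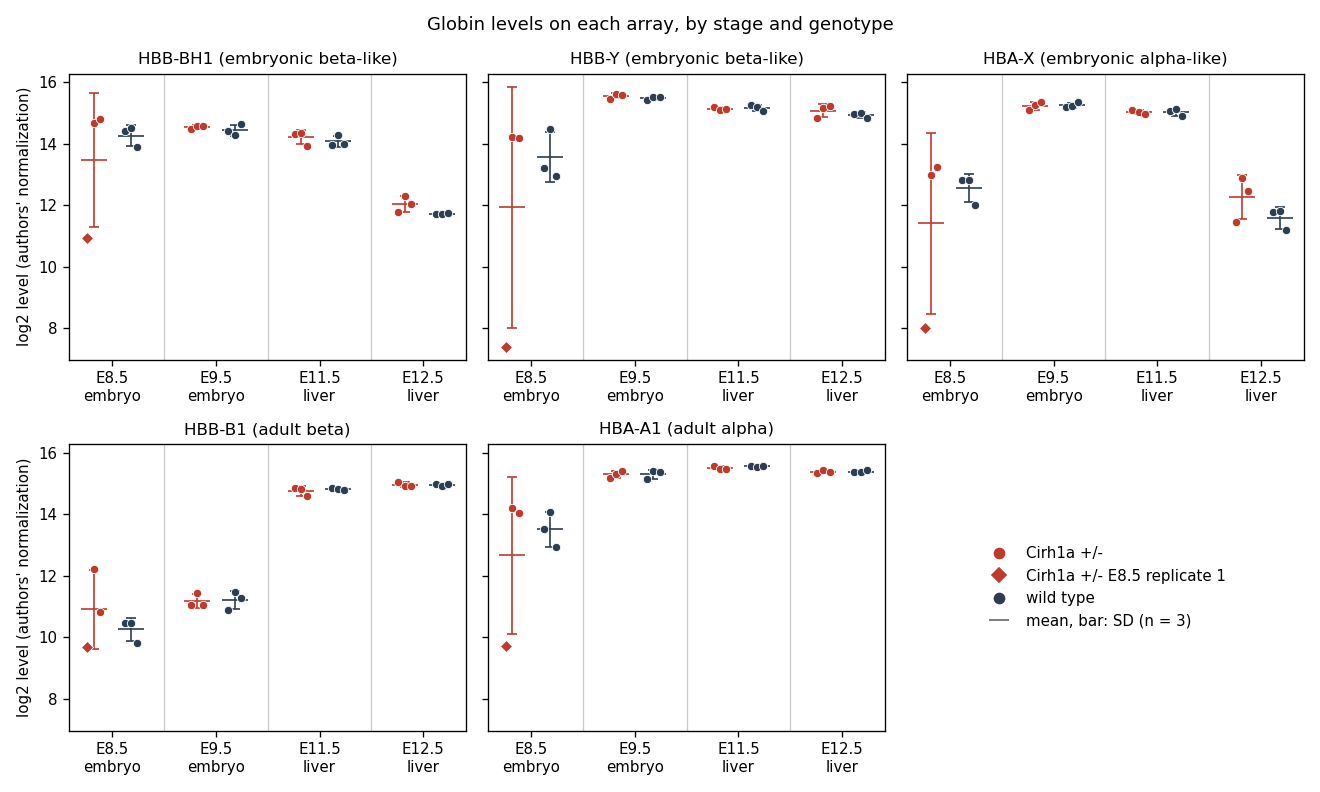
Log2 level of each globin on each array (y axis, authors' normalization) by stage, with Cirh1a +/- samples in red left of wild-type samples in dark blue; bars are the mean and SD of 3 samples and the diamond is E8.5 Cirh1a +/- replicate 1. HBB-BH1 reads 11.71 to 12.29 at E12.5 and 13.88 to 14.79 at E8.5 apart from the diamond, HBA-X overlaps between these stages, HBB-B1 reads 14.91 to 15.05 at E12.5 and 9.68 to 12.23 at E8.5, and the diamond lies below the other 5 E8.5 samples in all 5 panels, by only 0.15 for HBB-B1. E9.5 and E11.5 arrays are on scales of their own.

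Between E12.5 liver and E8.5 whole embryo, the only stages on 1 scale, HBB-B1 and HBA-A1 rose and HBB-BH1 fell, while HBB-Y and HBA-X did not pass the test. Stage and tissue change together in this comparison, and in bulk samples fewer cells of a type and less RNA per cell cannot be told apart. Here 74.0% of the 14626 target IDs tested passed an adjusted p of 0.05, 29.5% higher and 44.5% lower in liver, so a call alone sets no globin apart. The median target ID differed by -0.25, and the folds are given without subtracting that shift. HBB-B1 averaged 14.96 ± 0.05 in liver and 10.59 ± 0.92 in whole embryo (SD, n = 6 each), a log2 difference of 4.37 (SE 0.340; limma, adjusted p = 1.22e-07) or 20.7-fold. The 6 liver arrays were all above the 6 whole-embryo arrays. HBA-A1 averaged 15.39 ± 0.05 in liver and 13.09 ± 1.71 in whole embryo, a log2 difference of 2.30 (SE 0.639; limma, adjusted p = 0.00607) or 4.92-fold. Liver values of HBA-A1 lay next to the highest value of the scale, 15.50, and those of HBB-B1 lay near it, so both folds may understate the difference.

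HBB-BH1 fell to 11.88 ± 0.24 in liver, against 13.86 ± 1.47 in whole embryo, a log2 difference of -1.99 (SE 0.562; limma, adjusted p = 0.00676). The liver level was thus 25.2% of the whole-embryo level. HBB-BH1 levels overlapped between the stages only through E8.5 Cirh1a +/- replicate 1. HBB-Y averaged 14.99 ± 0.16 in liver and 12.74 ± 2.69 in whole embryo, a log2 difference of 2.25 (SE 0.997; limma, adjusted p = 0.0586). All 6 liver values of HBB-Y were above all 6 whole-embryo values, and they too lay near the top of the scale. HBA-X averaged 11.93 ± 0.63 in liver and 11.98 ± 1.99 in whole embryo, a log2 difference of -0.05 (95% interval -1.77 to 1.67; limma, adjusted p = 0.958). That interval leaves room for a difference of more than 3-fold either way.

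E8.5 Cirh1a +/- replicate 1 set these results to a large extent. Without that array all 5 globins passed, 3 higher and 2 lower in liver, against 3 passing with it. The log2 difference then was 1.15 for HBB-Y (limma, adjusted p = 0.00127), -0.90 for HBA-X (limma, adjusted p = 0.00795) and -2.61 for HBB-BH1 (limma, adjusted p = 8.03e-09). The wild-type arrays alone gave the same 5 calls, with 1.37 for HBB-Y and -0.96 for HBA-X (limma, adjusted p = 0.0185 and 0.0235). HBB-Y also passed when E8.5 Cirh1a +/- replicate 2 or 3 or wild-type replicate 2 was left out (limma, adjusted p = 0.0364, 0.0377 and 0.0483). HBA-A1 differed by 1.60 without E8.5 Cirh1a +/- replicate 1 (limma, adjusted p = 1.31e-05).

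**Figure D2:**
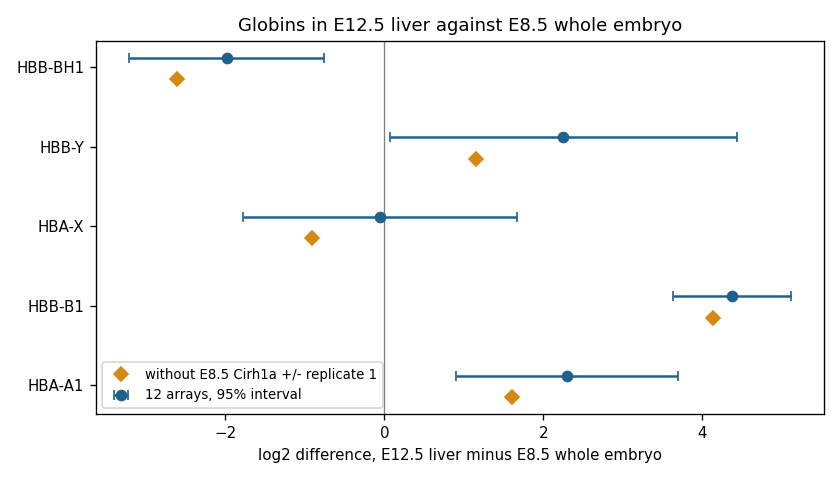
Log2 difference of each globin, E12.5 liver minus E8.5 whole embryo (x axis), as limma estimates over 12 arrays with 95% intervals (circles) and without E8.5 Cirh1a +/- replicate 1 (diamonds). HBB-B1 lies at 4.37, HBB-BH1 at -1.99, and HBA-X at -0.05, or at -0.90 when that array is left out.

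The other erythroid genes differed between E12.5 liver and E8.5 whole embryo mostly in 1 direction, with the shares of all target IDs given above as background. A gene was tested where its mean lay above the median target ID in either stage, so a gene low in whole embryo entered only through liver and had to be higher there. Of 20 tested genes of haem synthesis and haemoglobin assembly, 19 were higher in liver and none lower, 4 of the 19 (Abcb10, Bach1, Cpox and Fech) having entered through liver alone. The 3 of smallest p were Slc25a38, a mitochondrial carrier that supplies glycine for haem (11.97 in liver and 7.39 in whole embryo), Uros, a synthase of the haem pathway (10.64 and 5.40), both with a limma adjusted p of 6.15e-12 or less, and Fech, which inserts iron into the ring (8.59 and 2.47, its whole-embryo level below the array median of 2.70). Among the others that rose were Bach1, Cpox, Urod, Abcb6, Eif2ak1, Ppox, Alad, Abcb10, Slc25a37, Hmox1, Slc11a2, Tfrc, Blvrb, Alas2 and Steap3. Alas1, the first enzyme of the pathway in most tissues, differed by -0.10 (limma, adjusted p = 0.291).

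Red cell membrane genes and erythroid receptors rose in 21 of 23 cases and fell in 1, and 5 of the 21 (Add2, Ank1, Car1, Trim10 and Trim58) entered the test through liver alone. Trim10, a gene needed for terminal erythroid differentiation in mouse cells, stood at 11.63 in liver and 2.26 in whole embryo. Add2 (beta-adducin, of the membrane skeleton) stood at 8.11 and 2.26, and Ank1 (ankyrin, which anchors band 3) at 9.25 and 2.42. All 3 were below the array median in whole embryo, so their p-values are not given as support. Among the others that were higher were Car1, Epor, Aqp1, Rhag, Dmtn, Tmod1, Car2, Sptb, Ermap, Kel, Gypc, Bcl2l1, Cd24a, Gfi1b, Trim58 and Slc4a1. Trim58 averaged 2.71 in Cirh1a +/- and 2.62 in wild-type liver, close to the array median of 2.70. Slc2a1, a glucose transporter, was the gene that fell, with 13.53 in liver and 14.47 in whole embryo (limma, adjusted p = 4.34e-07).

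Regulators of globin switching went both ways, with 17 of 30 higher and 9 lower, and 6 of the 17 (Bach1, Bcl11a, Mafk, Myb, Nfia and Nfix) entered the test through liver alone. Bcl11a, a repressor of embryonic and fetal globin genes, stood at 9.82 in liver and 1.91 in whole embryo, where it was below the array median of 2.70. Lmo2, the bridging protein of the Gata1 complex, stood at 13.11 and 10.24, and Bach1, a haem-sensing repressor, at 6.90 and 2.01. Klf1, which drives adult beta globin, stood at 11.84 in liver and 6.21 in whole embryo (limma, adjusted p = 2.22e-06). Further genes that rose were Zbtb7a, Igf2bp3, Tal1, Gata1, Nfix, Myb, Nfia, Nfe2, Runx1, Klf2, Mta2, Rcor1 and Mafk. Those that fell were Igf2bp1, Chd4, Hdac2, Kdm1a, Nr2c1, Hic2, Mbd3, Ehmt1 and Dnmt1. Myb and Mafk, although called higher, lay close to the array median of 2.70 in liver. Myb averaged 2.94 in Cirh1a +/- and 2.88 in wild-type liver, and Mafk 2.95 and 2.72. Of the other globin family genes tested, 4 of 5 were higher, each having entered the test through liver alone: the adult-type Hbb-b2 target (9.58 in liver and 1.99 in whole embryo), Hbq1a (6.81 and 2.13), Hbq1b (5.77 and 2.61) and myoglobin, Mb (2.73 and 2.43). Mb lay close to the array median of 2.70 even in liver. Cygb differed by 0.37 (limma, adjusted p = 0.197).

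The balance of embryonic to adult globin was read on each array as the log2 difference between 2 globin signals. Such a difference holds the unequal response of the probes, so its value is no ratio of RNA amounts and only its change between arrays can be read. The members were chosen with these patterns known, and the balances are given without a test. HBB-BH1 minus HBB-Y, the pair that primitive cells exchange, averaged 1.12 at E8.5 and -1.03 at E9.5 in whole embryos, and -1.02 at E11.5 and -3.12 at E12.5 in livers (SD 1.25, 0.11, 0.21 and 0.15, n = 6 each). The E12.5 values of -3.28 to -2.87 lay below all E8.5 values, 0.02 to 3.54. The E8.5 mean without Cirh1a +/- replicate 1 was 0.64, and the highest of the other 5 arrays was 1.18.

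HBB-BH1 minus HBB-B1, embryonic against adult beta, averaged 3.27 in E8.5 embryos, 3.28 in E9.5 embryos, -0.66 in E11.5 livers and -3.08 in E12.5 livers. Both liver stages thus lay below both whole-embryo stages. Between E9.5 and E11.5 the tissue and the scale change along with the stage, so these values do not date the change. The lowest whole-embryo array had 1.26 at E8.5 (Cirh1a +/- replicate 1) and 2.81 at E9.5, and the highest liver array had -0.49 at E11.5 and -2.65 at E12.5. HBB-Y minus HBB-B1 averaged 2.15 in E8.5 embryos, 4.31 in E9.5 embryos, 0.36 in E11.5 livers and 0.03 in E12.5 livers. At E8.5 it was -2.28 on Cirh1a +/- replicate 1 and 1.97 to 3.996 on the other 5 arrays, with a mean of 3.04 without that array. Against HBB-B1, HBB-BH1 was lower at E12.5 than at E11.5 on all arrays, and HBB-Y had overlapping values at the 2 days. HBB-Y and HBB-B1 both lie near the top of the scale in liver, where a difference between them can be compressed, and the E11.5 arrays have a scale of their own, which can stretch or shrink a log2 difference.

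HBA-X minus HBA-A1, embryonic against adult alpha, averaged -1.11 in E8.5 embryos, -0.07 in E9.5 embryos, -0.51 in E11.5 livers and -3.46 in E12.5 livers. The E12.5 arrays ran from -4.26 to -2.56, all below the E8.5 arrays at -1.72 to -0.71. Setting E12.5 against E8.5, the balance differed by -4.24 for HBB-BH1 over HBB-Y, -6.36 for HBB-BH1 over HBB-B1, -2.12 for HBB-Y over HBB-B1 and -2.35 for HBA-X over HBA-A1. Without E8.5 Cirh1a +/- replicate 1 these differences were -3.76, -6.76, -3.00 and -2.47. Values of Cirh1a +/- and wild-type arrays overlapped for each of the 4 balances at each stage. At E12.5, for instance, HBA-X minus HBA-A1 averaged -3.12 ± 0.68 in Cirh1a +/- and -3.80 ± 0.40 in wild type (SD, n = 3 each). HBB-BH1 minus HBB-Y there averaged -3.03 ± 0.15 in Cirh1a +/- and -3.20 ± 0.12 in wild type.

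**Figure D3:**
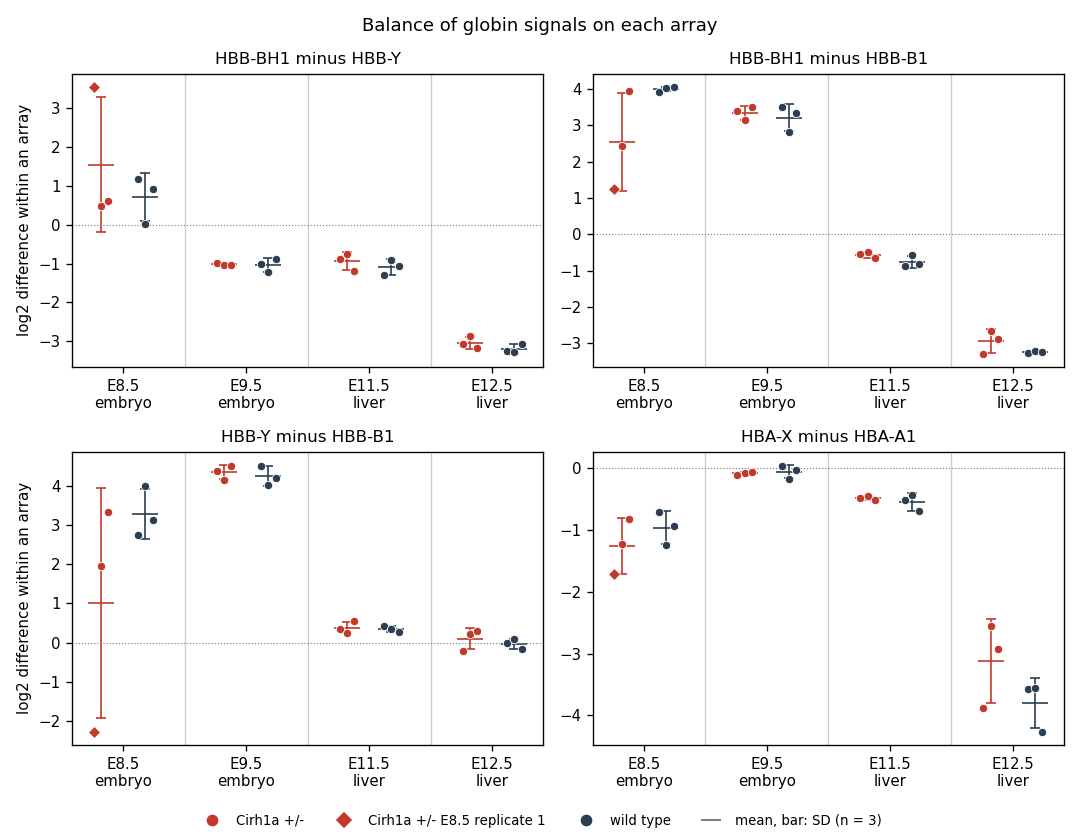
Log2 difference between 2 globin signals on each array (y axis) by stage, with Cirh1a +/- samples left of wild-type samples; bars are the mean and SD of 3 samples and the diamond is E8.5 Cirh1a +/- replicate 1. HBB-BH1 minus HBB-B1 is lower in both liver stages than in both whole-embryo stages and lowest at E12.5, where it averaged -3.08. The genotypes overlap in each panel at each stage. E9.5 and E11.5 arrays are on scales of their own, which can stretch or shrink a difference.

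In E8.5 whole embryos no globin differed between Cirh1a +/- and wild type beyond the spread of the samples. At this stage 0.0238% of 12603 target IDs passed (the 3 sex-linked transcripts Xist, Eif2s3y and Jarid1d), and 6.98% had groups that did not overlap. HBB-BH1 averaged 13.47 ± 2.19 in Cirh1a +/- and 14.26 ± 0.34 in wild type (SD, n = 3 each), a log2 difference of -0.79 with a 95% interval of -3.24 to 1.65. HBB-Y averaged 11.93 ± 3.92 in Cirh1a +/- and 13.55 ± 0.81 in wild type, a difference of -1.62 (95% interval -6.02 to 2.77). The means of HBA-X were 11.41 ± 2.94 in Cirh1a +/- and 12.55 ± 0.46 in wild type, and those of HBA-A1 12.67 ± 2.54 and 13.51 ± 0.56. Only HBB-B1 had a higher mean in Cirh1a +/-, 10.92 ± 1.28 against 10.26 ± 0.37. Adjusted p was 1.00 for all 5 in limma, and their groups overlapped. Without Cirh1a +/- replicate 1 all 5 differences were positive, 0.47 for HBB-BH1, 0.64 for HBB-Y, 0.56 for HBA-X, 0.62 for HBA-A1 and 1.27 for HBB-B1, and none passed (limma).

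Cirh1a +/- replicate 1 was thus the array on which the sign of 4 of these 5 differences rests. It was below the lowest of the other 5 arrays by 5.56 for HBB-Y, 4.003 for HBA-X, 3.21 for HBA-A1, 2.94 for HBB-BH1 and 0.15 for HBB-B1, on the log2 scale. Among 12603 target IDs above the median, 201 were more than 1 below all 5 other arrays there, against 7 to 37 for each other E8.5 array taken in turn. More than 2 below were 29 target IDs, against 0 or 1 on the other arrays. The share of target IDs below all 5 others, by any amount, was 19.2% on this array and 13.8% to 19.0% on the others. The share above all 5 others was 21.0% on this array and 11.3% to 17.2% on the others.

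By the distance below the next array, the target IDs around the globins were largely erythroid (they are the lowest of the array and were named after their values were seen). SLC4A1, the band 3 anion exchanger of the red cell membrane, stood at 4.13 against 10.29 to 11.37 on the other 5 arrays. ERAF, the alpha-haemoglobin stabilizing protein, stood at 6.47 against 9.999 to 11.15. ALAS2, the erythroid enzyme of the first haem step, stood at 4.18 against 7.27 to 8.49. All 3 are products of red cells past the progenitor stage. NFE2, a subunit of an erythroid and megakaryocyte factor, stood at 2.71 against 5.74 to 7.25, and KLF1 at 3.15 against 5.88 to 7.30. GFI1B, a repressor of erythroid and megakaryocyte cells, stood at 1.94 against 4.47 to 5.95. KEL, a blood group protein taken from the red cell membrane list, stood at 2.66 against 4.33 to 5.71 and was not among the 40 lowest.

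Not all blood genes were low on this array. Of the red cell membrane and erythroid receptor list, 11 of 18 genes above the median were below all 5 others, against 19.2% of all target IDs, 4 of them by more than 1, with a median difference of -0.64 from the mean of the others. Haem genes were below in 5 of 16 cases, 2 of them (Alas2 and Slc25a37) by more than 1, and the general enzymes Alas1 and Urod lay within the range of the others. Switching regulators were below in 11 of 24 cases, 2 of them (Klf1 and Nfe2) by more than 1. Gata2, a factor of early progenitors, stood at 7.43 against 7.12 to 7.62, Lmo2 at 10.14 against 10.10 to 10.34, and Gata1 at 2.69 against 2.33 to 4.10. The Gata1 value lay at the array median of 2.70, so it cannot show whether Gata1 was low. Tal1 was below the others by 0.67.

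Among markers of other cells, the median difference from the mean of the others was -0.47 for endothelial and 0.36 for tail bud and somite markers, against -0.15 for switching regulators and -0.07 for haem genes. Endothelial markers were below all 5 others in 6 of 10 cases, none by more than 1, with a list mean of 5.95 against 6.08 to 6.47. Visceral endoderm and yolk sac markers were below in 2 of 11 cases and hepatocyte markers in none of 9, with Afp, Ttr, Apoa1 and Hnf4a in both lists. Tail bud and somite markers were above all 5 others in 7 of 12 cases, none by more than 1, where 21.0% of all target IDs above the median were. Cardiac Nppa, an atrial hormone, was 1.87 below the next array, while cardiac Myl7 lay within the range. The target IDs furthest above the others were WNT8A (7.26 against 3.29 to 4.84), POU5F1, a pluripotency factor (7.66 against 2.09 to 5.25), and PPP1R1B (7.23 against 2.52 to 5.0), named after their values were seen. The part of these other markers in the low globin levels of this array was not tested.

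**Figure D4:**
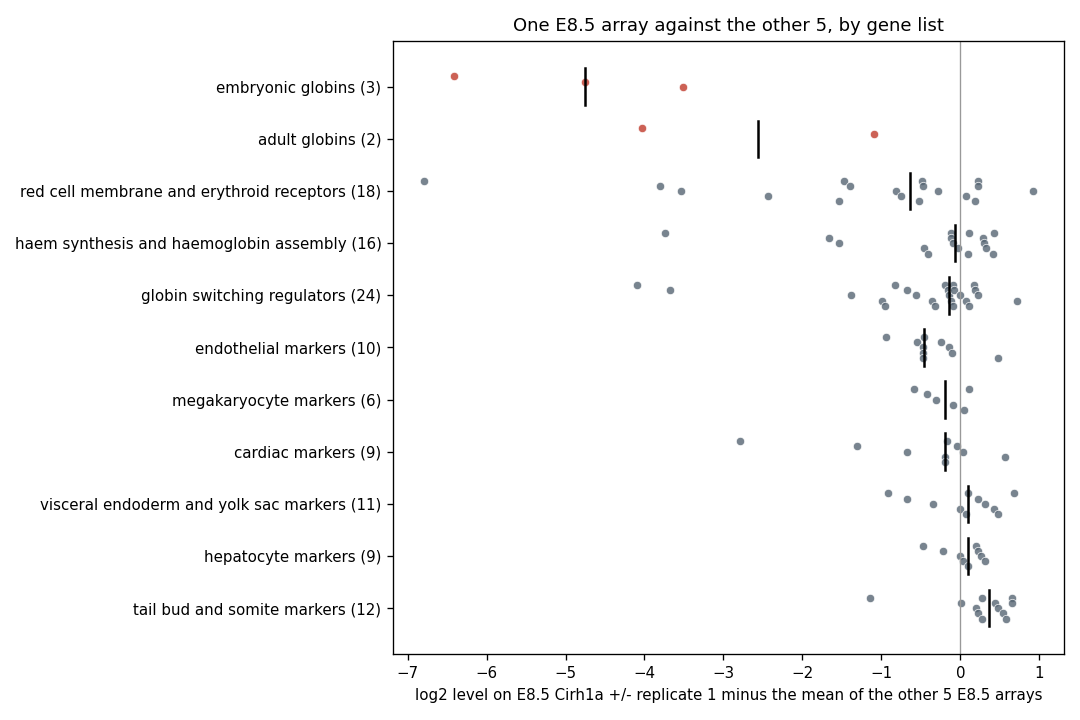
Log2 level on E8.5 Cirh1a +/- replicate 1 minus the mean of the other 5 E8.5 arrays (x axis) for each gene above the median level, by gene list (number of genes in brackets); black bars are list medians and globins are in red. The embryonic globins have a median of -4.76 and the adult globins of -2.56. The hepatocyte and yolk sac lists, which share Afp, Ttr, Apoa1 and Hnf4a, both have a median of 0.09.

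In E9.5 whole embryos the globins of the 2 genotypes lay close together. Here 0.00635% of 15741 target IDs passed (Cirh1a alone), with 1742 at an unadjusted limma p under 0.05, and 17.6% had groups that did not overlap. The log2 differences, Cirh1a +/- minus wild type, were 0.10 for HBB-BH1 (95% interval -0.08 to 0.29), 0.08 for HBB-Y (-0.06 to 0.21) and -0.03 for HBA-X (-0.20 to 0.15). Those of the adult globins were -0.03 for HBB-B1 (-0.36 to 0.30) and -0.003 for HBA-A1 (-0.19 to 0.19). HBB-Y, HBA-X and HBA-A1 lay near the top of the scale, where the highest value of an array was 15.70 to 15.80. Their differences can be compressed there. No globin passed, with limma adjusted p of 0.690 to 0.994, and none had groups apart. Visceral endoderm and yolk sac markers, by contrast, had a mean level of 9.15 to 10.03 in Cirh1a +/- and 8.86 to 8.98 in wild type, and their part in the globin values was not tested. All 12 of them that were tested had an unadjusted limma p under 0.05, 11 of them higher in Cirh1a +/-, and none passed after adjustment.

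E11.5 livers gave the same picture for the 5 globins. Of 15734 target IDs 0% passed (414 had an unadjusted limma p under 0.05), and 8.19% had groups that did not overlap. HBB-BH1 differed by 0.13 (95% interval -0.17 to 0.42), HBB-Y by -0.03 (-0.21 to 0.16) and HBA-X by 0.01 (-0.19 to 0.20). HBB-B1 differed by -0.07 (-0.27 to 0.14) and HBA-A1 by -0.06 (-0.23 to 0.10). All 5 had a limma adjusted p of 1.00 and overlapping groups. HBA-A1 was the highest value on each of these arrays, 15.46 to 15.58, and HBB-Y, HBA-X and HBB-B1 lay near it. Differences of these globins can be compressed there.

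In E12.5 livers the 3 embryonic globins had higher means in Cirh1a +/- without passing the test. No target ID of 12603 passed at this stage, 0%, with 486 at an unadjusted limma p under 0.05, and 7.13% had groups that did not overlap. HBB-BH1 averaged 12.03 ± 0.26 in Cirh1a +/- and 11.73 ± 0.03 in wild type (SD, n = 3 each), a log2 difference of 0.31 (SE 0.146; limma, adjusted p = 1.00). It was the 1 globin of 5 with groups apart, and without Cirh1a +/- replicate 2 the difference was 0.18. HBA-X averaged 12.27 ± 0.73 in Cirh1a +/- and 11.59 ± 0.36 in wild type, a difference of 0.67 (95% interval -0.27 to 1.62), which was 0.36 without Cirh1a +/- replicate 2 and 1.07 without Cirh1a +/- replicate 1. HBB-Y differed by 0.14 (-0.18 to 0.46), HBB-B1 by 0.01 (-0.21 to 0.22) and HBA-A1 by -0.01 (-0.22 to 0.20). The intervals of both adult globins lie within -0.22 and 0.22. HBA-A1, HBB-B1 and HBB-Y all lay near the top of the scale in these livers, where a difference can be compressed.

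Averaged over the 4 stages, no globin passed, nor did any of 16402 target IDs (0%, with 879 at an unadjusted limma p under 0.05). The mean log2 difference was -0.06 for HBB-BH1, -0.36 for HBB-Y, -0.12 for HBA-X, 0.14 for HBB-B1 and -0.23 for HBA-A1, with limma adjusted p of 0.991 to 0.996. Without the E8.5 stage the averages were 0.18 for HBB-BH1, 0.06 for HBB-Y, 0.22 for HBA-X and -0.03 for HBB-B1, again with none passing. The difference of the genotype effect, liver minus whole embryo, passed for 0.00610% of 16402 target IDs (EG633640) and for no globin. It was 0.56 for HBB-BH1 (95% interval -0.68 to 1.80), 0.83 for HBB-Y (-1.37 to 3.03) and 0.92 for HBA-X (-0.78 to 2.62). For HBB-B1 it was -0.34 (-1.12 to 0.43) and for HBA-A1 0.39 (-1.05 to 1.82).

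**Figure D5:**
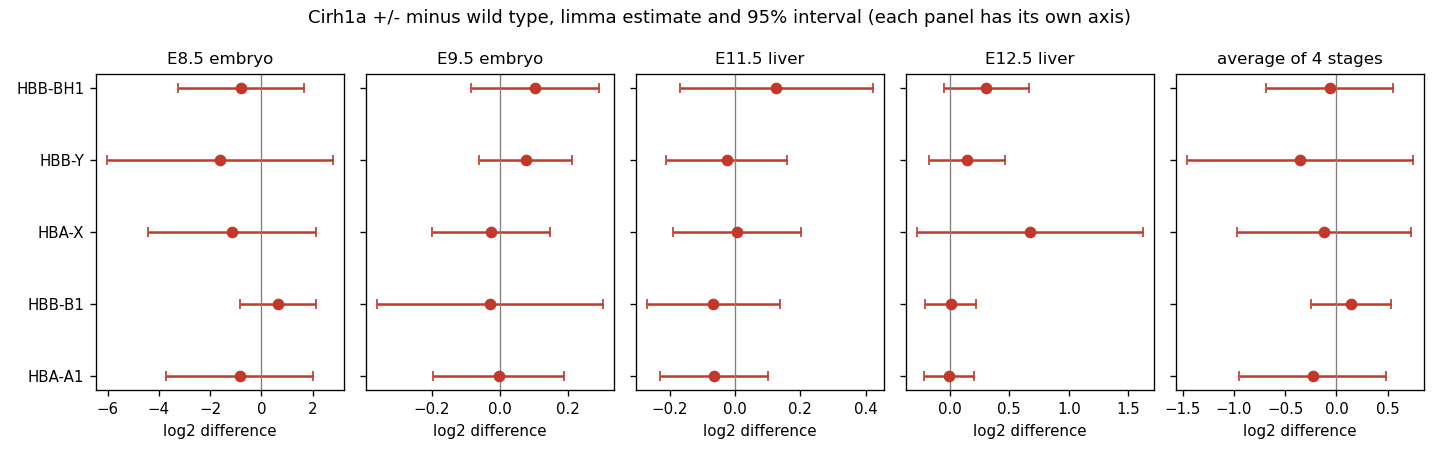
Log2 difference of each globin, Cirh1a +/- minus wild type (x axis, own range in each panel), at each stage and averaged over the 4 stages, as limma estimates with 95% intervals. Every interval includes 0, and the E8.5 intervals, such as -6.02 to 2.77 for HBB-Y, are the widest.

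The genes around globin production did not pass between Cirh1a +/- and wild type at any stage. At E8.5 the switching regulators of smallest p were Klf2, an activator of embryonic globins in mouse primitive cells (5.10 in Cirh1a +/- and 6.03 in wild type; limma, adjusted p = 0.947), Ehmt1 (3.95 and 3.15) and Klf3 (3.79 and 4.47). The haem genes were Hmox1, Slc11a2 and Steap3 and the red cell genes Aqp1, Cd24a and Bcl2l1, all with a limma adjusted p of 1.00. At E9.5 the regulators were Dnmt1 (12.05 in Cirh1a +/- and 12.31 in wild type; limma, adjusted p = 0.195), Cbfa2t3 and Zbtb7a. The haem genes Cpox and Abcb6 and the red cell genes Epb41, Car2 and Tmod1 had limma adjusted p of 0.310 to 0.522 there.

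In E11.5 liver Bcl11a (10.34 in Cirh1a +/- and 10.56 in wild type), Bach1 and Ldb1 came first among the regulators, Bach1, Uros and Alas2 among the haem genes and Aqp1, Sptb and Ank1 among the red cell genes. In E12.5 liver the genes of smallest p included Klf2 (6.33 in Cirh1a +/- and 6.50 in wild type), Klf3 and Igf2bp3, then Uros, Slc25a38 and Tfrc, and Aqp1 and Tmod1. All of these liver genes had a limma adjusted p of 1.00. Red cell membrane genes had a negative difference in 20 of 23 cases at E11.5 (median -0.12) and in 17 of 23 at E12.5 (median -0.04), where 49.57% and 50.69% of all target IDs had a positive one. No gene of this list passed at either day, and its genes share the same arrays, so the counts are not independent. The list mean (22 genes) at E11.5 was 10.05 to 10.22 in Cirh1a +/- and 9.998 to 10.38 in wild type. At E12.5 it was 10.155 to 10.25 in Cirh1a +/- and 10.17 to 10.29 in wild type. The genotypes thus overlapped in this mean at both days. At E11.5 the cardiac markers had a positive difference in 7 of 7 cases (median 0.84), with a list mean of 8.89 in Cirh1a +/- replicate 3 and 7.15 to 7.38 in the other 5 samples, and their part in the red cell differences was not tested.

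Over the 4 stages Klf2, Ehmt1 and Gata2, Cpox, Slc25a38 and Hmox1, and Aqp1, Add2 and Trim10 had the smallest p of their lists. Aqp1, a water channel of the red cell membrane, differed by -0.30 on average (SE 0.104; limma, adjusted p = 0.734). For liver minus whole embryo they were Klf2, Klf3 and Ehmt1, Uros, Steap3 and Slc11a2, and Trim58, Car2 and Cd24a. Klf2 differed there by 0.47 (SE 0.140; limma, adjusted p = 0.693).

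The genes most like the globins were sought over the 24 arrays after the mean of each stage and genotype was subtracted, among 16079 target IDs. The points share arrays and normalization, and Pearson's r is a description. With the mean of the embryonic globins the closest were SLC4A1 (r = 0.979), ERAF (0.977), UBE1L (0.962), ALAS2 (0.953), NFE2 (0.952), RFESD (0.951), KLF1 and GFI1B (both 0.945), HEMGN and GABPB1 (both 0.936). With the mean of the adult globins the closest included KLF1 (0.974), ERAF (0.970), SLC4A1 (0.965), ALAS2 (0.964), NFE2 (0.949), GFI1B (0.946), HEMGN (0.942), RFESD (0.941) and UBE1L (0.940). Among the globins themselves, HBA-A1 had r = 0.986 with the embryonic mean and HBB-B1 0.781.

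These likenesses rest on E8.5 Cirh1a +/- replicate 1. Without it, over 23 arrays, the order for the embryonic globins was LOC382091 (r = 0.919), FGD3, RC3H1, SPHK2, LOC381470, LOC385742, HAP1, LOC381174, FOXN4 and GM22 (0.830), with none of the earlier names. For the adult globins it was EIF1AY (0.912), MAGEA5, 2310002B06RIK, NSEP1, ARID4A, C820007E08RIK, 1700086G18RIK, GATA1 (0.860), PLA2G4B and 2510002J07RIK (0.853). HBB-B1 then had r = 0.212 with the embryonic globins, and HBA-A1 had 0.735.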

How the data were processed

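Per the labels' protocols, total RNA was column-purified and biotin-labelled for Illumina arrays. The deposited table holds log2 values per target ID, normalized by the authors with a method not given in the sources used here. A further 4 tables hold 48 columns of signal and detection p-values whose names match no sample label, and only their probe identifiers were used. Arrays have no read depth, so their number limits the precision.

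The levels were tested with limma 3.58.1 in R 4.3.3 (lmFit, eBayes, two-sided, Benjamini-Hochberg over all target IDs tested, threshold 0.05). Within a stage, those with a mean above the stage median were tested, and in the fits over 24 arrays those with all values and a mean above the median at 1 stage or more. With 3 against 3 samples an exact permutation test cannot go below 0.1. Alternatives were the filter, eBayes with trend and robust, array weights, the replicate number as a block, wild-type arrays alone and each array left out. The replicate numbers were not shown to pair samples. The fits were tested on simulated data.

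The members, the gene lists and the tests were chosen with earlier results of these data known. Named are all 5 globins, list genes past the threshold, the 3 genes of smallest p from each of 3 erythroid lists, the 10 genes most like the globins, and genes said to be named after their values were seen. Some genes that this rule names are not reported here.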

Additional observations from a re-analysis of the deposited data

How the results depend on the processing

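No globin passed between Cirh1a +/- and wild type at any stage, on average or in liver minus whole embryo under any alternative run, with a lowest limma adjusted p of 0.402. HBB-B1, HBA-A1 and HBB-BH1 passed between E12.5 liver and E8.5 whole embryo under every alternative run. Array number and the top of the scale limit what smaller differences can be seen. The top of the scale matters for HBA-A1, for HBB-Y from E9.5 on, for HBA-X at E9.5 and E11.5 and for HBB-B1 in liver. Where no sentence says otherwise, the cause of a change was not tested.

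Over all target IDs, the count past the threshold at E8.5 was 1 with a filter at the upper quartile. At E9.5 it was 18 with eBayes trend and robust, 2 with the replicate block, 14 with the upper-quartile filter and 9 with array weights, and 0 to 54 with 1 array left out. At E12.5 it was 1 with trend and robust. For the average it was 1 without the E8.5 stage, an alternative chosen after seeing the data, and 0 to 51 with 1 array left out. For liver minus whole embryo it was 0 with the replicate block, with array weights and without the E8.5 stage, and 0 to 68 with 1 array left out. The replicate block, a fit with the replicate number as a term, took HBB-Y between E12.5 and E8.5 past the threshold (limma, adjusted p = 0.0495) and changed no other call of a globin. Same-numbered samples correlated at -0.393 to 0.177 in their deviations from the group means, over 0.1 in 2 of 12 pairs. The numbers were thus not shown to pair the samples, and a pairing is not excluded.

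Signs of globin differences that lay near 0 reversed without a call. With array weights these were HBB-B1 (0.0172), HBA-A1 (0.0213) and HBA-X (0.0014) at E9.5, HBB-B1 at E12.5 (-0.0299), and HBB-BH1 (0.0437) and HBA-X (0.0347) on average. Without the E8.5 stage the averages were -0.0298 for HBB-B1, 0.18 for HBB-BH1, 0.0643 for HBB-Y and 0.22 for HBA-X, and liver minus whole embryo was -0.0183 for HBB-Y and -0.0328 for HBA-A1.

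With 1 array left out, E8.5 differences ran from -0.0033 to 1.27 for HBB-B1, -1.45 to 0.47 for HBB-BH1, -2.76 to 0.64 for HBB-Y, -1.62 to 0.62 for HBA-A1 and -2.05 to 0.56 for HBA-X. E9.5 differences ran from -0.19 to 0.10 for HBB-B1, -0.0893 to 0.0542 for HBA-A1 and -0.0871 to 0.0446 for HBA-X. E11.5 differences ran from -0.12 to 0.0184 for HBB-B1, -0.0817 to 0.021 for HBB-Y and -0.0618 to 0.0512 for HBA-X. E12.5 differences ran from -0.0351 to 0.0339 for HBB-B1, -0.0374 to 0.022 for HBA-A1, 0.18 to 0.44 for HBB-BH1, 0.0698 to 0.26 for HBB-Y and 0.36 to 1.07 for HBA-X. The averages ran from -0.0232 to 0.30 for HBB-B1, -0.23 to 0.25 for HBB-BH1, -0.64 to 0.21 for HBB-Y, -0.42 to 0.14 for HBA-A1 and -0.35 to 0.30 for HBA-X. Liver minus whole embryo ran from -0.0717 to 0.89 for HBB-BH1, -0.30 to 1.40 for HBB-Y and -0.34 to 0.78 for HBA-A1. E12.5 liver minus E8.5 whole embryo ran from -0.90 to 0.25 for HBA-X.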
